A study of Homo sapiens with 12 samples.

Results

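The comparison described here is that of 500 nM against 100 nM THZ531 in A673 cells, which shows what a higher dose of the compound added to a lower one after the same 6 hours. Its members are 4 of the 12 arrays of the series, 2 at each dose, taken by cell line and dose from the sample titles. Values were read from entries of the series' log2 table that carry 1 gene and 3 decimals, which gave 16913 genes, and 10148 of these were bright enough to be tested. A673 is an established Ewing sarcoma cell line, and THZ531 is named THZ_5_31_1 in the titles. The series also holds 2 A673 arrays with the solvent DMSO and 6 arrays of TC32, another Ewing sarcoma line, in the same 3 conditions. The DMSO samples also bear a 100 nM dose label, here taken as not meant for the solvent. The labels name no genetic modification in any group, and each line stands for 1 tumour. The labels call the replicates biological without naming separate cultures, so the p-values speak only for the spread among these arrays, which may be technical.

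CDK12 and CDK13 are kinases that pair with cyclin K and phosphorylate the tail of RNA polymerase II while it elongates. THZ531 binds both covalently. Loss of their activity is known to weaken elongation and to favour early cleavage and polyadenylation, with long genes and DNA repair genes among those best known to be affected. Ewing sarcoma cells depend on a fusion protein, which in these lines joins part of EWSR1 to part of FLI1 (EWS/FLI).

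The A673 arrays carried the transcripts that mark Ewing sarcoma. CD99, a surface protein used in its diagnosis, stood at 13.57 and 13.54 (log2, as deposited) at 100 nM and at 13.68 and 13.33 at 500 nM. NKX2-2, a homeobox target of the fusion, stood at 10.56 and 10.54, and at 9.81 and 9.28. Of 5 measured haematopoietic markers 3 lay under the level for testing at both doses, as did 4 of 8 epithelial markers, EPCAM and CDH1 among them. The same held for 4 of 8 endothelial and fibroblast markers, and for OLIG2 and MBP of the 8 neural ones. The other measured markers of each list had means at or above that level at both doses, so no list was absent as a whole. None of the markers tested was called as deposited. Relative to the array medians PDGFRB, SNAP25 and SYT1 were called higher at 500 nM (0.41, 0.39 and 0.49), and each call ended when 1 of at least 2 of the 4 compared arrays was left out. The log2 of the summed marker signal ranged from 8.36 to 8.51 at 100 nM and from 8.12 to 8.58 at 500 nM for haematopoietic markers, and from 12.01 to 12.10 and 11.82 to 12.44 for epithelial ones. It ranged from 8.92 to 8.96 and 8.78 to 9.11 for endothelial and fibroblast markers, and from 11.98 to 11.99 and 11.60 to 12.14 for neural ones. In each marker list the 500 nM arrays lay on both sides of the 100 nM arrays.

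Whole arrays differed from each other, and this sets how many genes count as higher. The replicates correlated at 0.9953 across genes at 500 nM and at 0.9964 at 100 nM, but replicate 1 at 500 nM lay a median of 0.52 above replicate 2. Against the 2 arrays at 100 nM, the median gene of replicate 1 was higher by 0.05 and 0.08, and that of replicate 2 was at -0.49 and -0.45. The total RNA was spiked with the ERCC mix, synthetic RNAs of known amount, and whether the deposited values were scaled to it is not known. For a shift of all genes, fewer cells, less RNA per cell and scaling cannot be told apart. Differences and counts are given relative to the array medians, which removes a shift of -0.21 from this comparison. Many have the value as deposited beside them, and those below that name no scale are relative. First steps, and list counts of 1 step against the other, are given on the relative scale only. Over tested genes the median first step was 0.096 on that scale and -0.5225 as deposited. A relative rise in the first step can thus be a fall as deposited.

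Relative to the array medians, 2552 of the 10148 genes were lower at 500 than at 100 nM (25.1%) and 1060 were higher (10.4%), by limma with adjusted p under 0.05. At least 2-fold changes were far more often falls, 648 against 34. As deposited, 2706 genes were lower (26.7%) and 91 higher (0.897%), so the share of higher genes among the calls went from 29.35% to 3.253%. All 91 were also called higher relative to the medians, and 2547 genes were called lower on both scales. Quantile normalization gave 2296 lower and 2800 higher. Relative to the medians, the 1060 came to 422 without replicate 1 at 500 nM and 491 or 500 without replicate 1 or 2 at 100 nM. As deposited, it was 953 without replicate 2 at 500 nM, with 2151 lower, and 57 without replicate 1 at 500 nM, with 6574 lower. Without replicate 1 or 2 at 100 nM, 50 or 43 were higher and 1734 or 1922 lower as deposited. Counts of lists as deposited moved with these arrays too: without replicate 1 at 500 nM, for example, 30 of 31 transcription elongation genes and 18 of 25 DNA damage response genes were lower. Both 500 nM arrays lay above both 100 nM arrays for 37% of all tested genes and below them for 37.1%. The share called lower differed with brightness. In 5 equal groups, from the dimmest to the brightest at 100 nM, it was 7.93%, 24.4%, 35.5%, 36% and 21.9%. The shares over all genes set beside the lists are not matched for this.

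The largest falls included regulators of chromatin, transcription and the cell cycle. TADA1, a subunit of the SAGA coactivator, stood at 9.46 and 9.25 as deposited at 100 nM and at 6.93 and 6.45 at 500 nM. Both higher-dose arrays lay far below both lower-dose arrays, on either scale. Relative to the array medians TADA1 differed by -2.45 ± 0.17 (log2, SE, n = 2 against 2, adjusted p 4.04e-10), a 5.46-fold lower signal. CHD1, a chromatin remodeller bound to active genes, went from 9.03 and 9.09 to 6.65 and 6.48, a relative difference of -2.28 ± 0.14 (adjusted p 6.94e-11). With DMSO the same gene stood at 9.59 and 9.65, and its first dose step was 0.06 relative to the medians, so on that scale its fall lay in the second step.

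E2F3, a transcription factor of S phase entry, stood at 9.38 and 9.36 at 100 nM and at 7.18 and 6.77 at 500 nM. TBK1, a kinase of innate immune signalling, stood at 9.36 and 9.32, and at 7.23 and 6.70. For both genes the 2 doses did not overlap, and the relative differences were -2.18 ± 0.12 and -2.16 ± 0.12 (adjusted p 2.94e-11 each). The others of the 12 largest falls lay between -2.34 and -2.04. They were RAPGEF2, an activator of the GTPase Rap, the zinc finger genes ZNF184 and ZNF217, KANK1, an adaptor of the cell cortex, and FBXL5, an F-box protein that senses iron. EPC2, of the enhancer of polycomb family, TLK2, a kinase of chromatin assembly, and the BMP ligand GDF6 completed them. Genes of larger fitted falls, PAPOLG at -2.68 among them, reached means under 5.94 at 500 nM, the level for testing, where their order is no ranking.

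The largest rises held immediate-early transcripts, small nucleolar RNA genes and histones. EGR1, a zinc finger transcription factor induced within minutes by many stimuli, stood at 9.97 and 9.84 at 100 nM and at 12.06 and 11.55 at 500 nM. It was the largest rise on both scales, at 2.11 ± 0.12 relative to the medians (4.32-fold, adjusted p 4.29e-11) and 1.90 as deposited. With DMSO it stood at 10.76 and 10.56, and its first step was -0.14 (adjusted p 0.379), so on that scale the rise lay in the second step.

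FOS, a subunit of the AP-1 transcription factor, stood at 9.74 and 9.95 with DMSO, at 10.43 and 9.93 at 100 nM, and at 11.80 and 11.41 at 500 nM. SAT1, the enzyme that acetylates spermidine and spermine for their breakdown, went from 7.28 and 7.29 over 8.51 and 8.47 to 10.18 and 9.60. Both genes were highest on the 500 nM arrays, with no overlap with 100 nM, and SAT1 climbed at each step. Their relative differences at the second step were 1.64 ± 0.15 and 1.61 ± 0.13 (adjusted p 1.49e-08 and 1.4e-09). ARC, an activity-regulated gene, and ZFP36, which binds AU-rich messengers and speeds their decay, rose by 1.67 and 1.62. SNORA65, CSKMT, which encodes a methyltransferase of citrate synthase, SNHG17, H3C7, H2AC11, IER5L and H3C8 rose by 1.18 to 1.47. None of these 12 rises or 12 falls lost its call without any of the 12 arrays in turn. Of the rises, all 12 were also called as deposited, between 0.96 and 1.90.

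**Figure D1:**
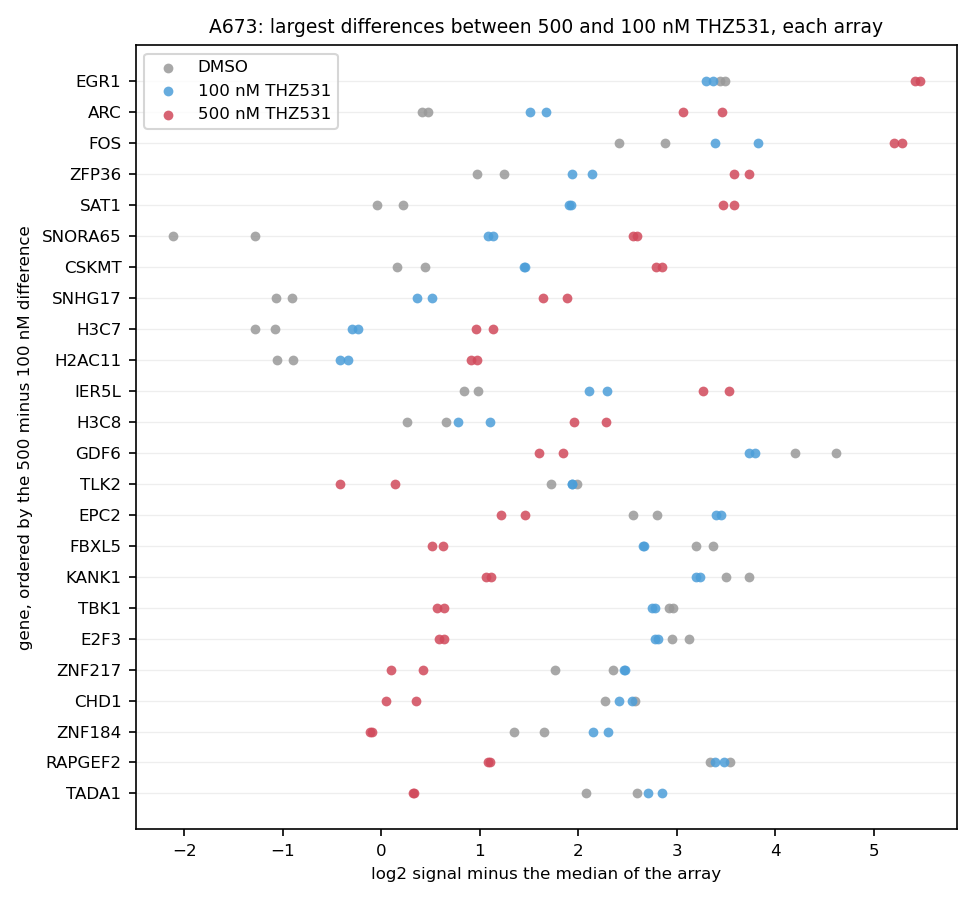
Signal of the 12 largest rises and 12 largest falls on each A673 array. The x axis gives log2 signal minus the median of the array, each point is 1 array, and rows are ordered by the difference between 500 and 100 nM. For all 24 genes the red points (500 nM) lie clear of the blue ones (100 nM), which the rule for naming them required, and for EGR1 and CHD1 the blue points lie beside the grey ones (DMSO).

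Transcripts such as these risers often carry short elements near the start that set rapid or replication-linked expression. The starts of 5 are shown, chosen because they held a serum response element or the letters TATAAA. The others of the 10 risers with a RefSeq promoter held neither and are not shown. The sequences are RefSeq's (GRCh38.p14), 250 bases upstream of the start, 5′ to 3′ on the gene's strand. Capitals mark serum response elements (CArG boxes) in EGR1 and the letters TATAAA, on either strand, in the others. EGR1 lies at chr5:138465229-138465478 (+), FOS at chr14:75278578-75278827 (+) and CSKMT at chr11:62665062-62665311 (+). H3C7 lies at chr6:26250636-26250885 (-) and H2AC11 at chr6:27132793-27133042 (+).
EGR1: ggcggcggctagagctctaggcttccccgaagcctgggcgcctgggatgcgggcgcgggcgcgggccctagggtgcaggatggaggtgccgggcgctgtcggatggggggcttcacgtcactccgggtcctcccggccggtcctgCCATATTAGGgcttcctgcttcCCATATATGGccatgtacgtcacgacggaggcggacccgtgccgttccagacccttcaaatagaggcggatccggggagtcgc
FOS: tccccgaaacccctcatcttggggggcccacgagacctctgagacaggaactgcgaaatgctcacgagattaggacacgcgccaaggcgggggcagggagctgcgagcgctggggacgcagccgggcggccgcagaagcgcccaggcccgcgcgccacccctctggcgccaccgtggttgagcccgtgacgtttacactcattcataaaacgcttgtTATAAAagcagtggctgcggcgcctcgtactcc
CSKMT: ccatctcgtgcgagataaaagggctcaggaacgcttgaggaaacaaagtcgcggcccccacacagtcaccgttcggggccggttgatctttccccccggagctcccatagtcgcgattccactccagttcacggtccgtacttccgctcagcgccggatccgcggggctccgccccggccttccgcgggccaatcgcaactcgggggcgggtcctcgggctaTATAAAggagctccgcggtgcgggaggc
H3C7: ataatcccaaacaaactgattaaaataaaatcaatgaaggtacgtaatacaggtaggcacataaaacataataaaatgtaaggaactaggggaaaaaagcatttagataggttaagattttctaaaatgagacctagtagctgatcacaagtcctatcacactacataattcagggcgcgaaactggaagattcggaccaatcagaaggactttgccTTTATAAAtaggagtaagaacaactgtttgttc
H2AC11: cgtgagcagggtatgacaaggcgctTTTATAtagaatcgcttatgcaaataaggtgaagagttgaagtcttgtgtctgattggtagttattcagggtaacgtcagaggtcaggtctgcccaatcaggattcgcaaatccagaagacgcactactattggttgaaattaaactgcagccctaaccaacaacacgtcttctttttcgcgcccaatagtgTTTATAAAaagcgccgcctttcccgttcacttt

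The 2 CArG boxes of EGR1 lay 105 to 96 and 83 to 74 bases before its start, and TATAAA lay 33 to 28 bases before that of FOS and 28 to 23 before that of CSKMT. In H3C7 and H2AC11 the letters overlapped on both strands between 33 and 26 bases before the start. TATAAA was found in the 250 bases of 4 of the 10 largest rises used for this count, of 0 of 11 largest falls and of 5.6% of 8397 tested genes with a RefSeq promoter. Among all called genes the shares were 6.98% of the higher and 4.06% of the lower, and among all 27305 promoters 11.1%. CArG boxes were found in 1 of the 10 rises, in 1.02% of tested genes and in 1.14% of all promoters. These matches are letters only, and no test was made on them.

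CDK12, CDK13 and CCNK, the genes of the compound's targets and their cyclin, were lower at 500 than at 100 nM, and of these CDK13 had also fallen in the first step. CDK12 stood at 7.81 and 8.07 at 100 nM and at 7.16 and 6.67 at 500 nM, with no overlap. Its relative difference was -0.81 ± 0.12 (adjusted p 1.42e-05), after a first step of 0.16 that did not pass the test (adjusted p 0.3). CDK13 differed by -1.02 ± 0.17 (adjusted p 5.7e-05) after a first step of -0.80 (adjusted p 0.000856), and its mean at 500 nM lay under the level for testing. CCNK, which encodes cyclin K, was at -0.49 ± 0.11 (adjusted p 0.00135), after 0.40 in the first step. In TC32 the step was -0.997, -1.17 and -0.46 for CDK12, CDK13 and CCNK, and the test of the difference between the lines passed for 0 of the 3 (adjusted p 0.517, 0.735 and 0.939). ZC3H4, a restrainer of noncoding transcription, fell by 1.55 after 2.10, to a mean under that level.

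Genes of transcription elongation fell or did not pass the test in this comparison, relative to the medians and as deposited. Of 31 tested members 15 were called lower and 0 higher (0.05 threshold, limma), beside 25.1% and 10.4% of all genes. Their median was -0.25 against 0.02 over all genes, and as deposited 15 were lower and 0 higher. After quantile normalization 12 were lower and 5 higher. CDK7, the kinase of TFIIH that activates CDK12 and CDK9, stood at 9.46 and 9.44 at 100 nM and at 7.998 and 7.65 at 500 nM. It fell by 1.41 ± 0.14 (adjusted p 2.87e-08), while its first step was 0.33 (adjusted p 0.0593). IWS1, a partner of the elongation factor SPT6, fell by 1.28 and MEPCE, the capping enzyme of 7SK RNA, by 1.25. The first step, measured against the same 100 nM arrays, had called 5 members lower and 12 higher relative to the medians. Over all genes 17.1% and 24.4% were called lower and higher. For 16 of the 31 the second step lay below the first by the test of that difference, and for 1 it lay above. This stands beside 21.6% and 9.41% of all genes relative to the medians, and 5.53% and 10% as deposited.

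Genes of transcript processing included falls and a few rises. Of 26 tested genes of 3′ end processing 12 were lower and 2 higher, beside 25.1% and 10.4% of all genes (11 and 6 after quantile normalization). PAPOLG, a poly(A) polymerase, had the lowest fitted value (-2.68), and SCAF4, a suppressor of early polyadenylation that binds the polymerase tail, fell by 1.46. WDR33, the subunit that reads the AAUAAA signal, went from 9.41 and 9.51 at 100 nM to 8.11 and 7.59, a fall of 1.39 ± 0.12 after a rise of 1.13. RPRD1A, which binds the polymerase tail, was higher by 0.75 (0.54 as deposited, adjusted p 0.0371). The other call, SYMPK at 0.31, ended without any 1 of the 4 arrays compared. Of 30 splicing factors and CLK kinases 11 were lower and 2 higher, beside the same shares. RBM5, a regulator of exon choice, fell by 1.88, SRSF4 by 1.17 and the SR protein kinase SRPK2 by 0.76. SRSF7 went the other way, from 12.07 and 11.88 to 12.86 and 12.37, a relative rise of 0.85 ± 0.09 that also passed as deposited (0.64, adjusted p 0.000456). PRPF38B rose by 0.98, and in TC32 it did not (-0.04, adjusted p of the difference 0.000832).

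Zinc finger and chromatin regulator genes had the lowest median of the lists with more than 3 tested members. Of 29 tested 21 were lower and 1 higher, beside 25.1% and 10.4% of all genes. Their median was -0.57, and as deposited 21 were lower and 0 higher. CHD1 led. ARID2, a subunit of the PBAF remodelling complex, stood at 9.02 and 8.74 at 100 nM and at 7.02 and 6.54 at 500 nM, a fall of 1.88 ± 0.12 after 1.04 in the first step. ZNF827 fell by 1.64, to a mean under the level for testing. Genes whose symbol is ZNF and a number were a group made with earlier results known. They were called lower in 135 of 245 cases (55.1%) and higher in 12 (4.9%), beside the same shares of all genes. Their median was -0.51 relative to the array medians and -0.72 as deposited.

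Of 29 G2/M and mitosis genes 20 were lower, 0 were higher and 9 did not pass the test on both scales, beside 25.1% lower over all genes relative to the medians, with a median of -0.50. Quantile normalization gave 20 lower and 3 higher. CENPA, the histone variant of centromeres, went from 9.89 and 9.74 to 8.11 and 7.53, a fall of 1.78 ± 0.11 (adjusted p 8.72e-11). The kinesin KIF18A fell by 1.34 and the kinetochore gene NDC80 by 1.29, and both had already fallen by 1.48 and 1.41 in the first step. Of 32 G1/S and replication genes 14 were lower and 3 higher (14 and 8 after quantile normalization), beside 25.1% and 10.4% of all genes, the latter share being near. As deposited 0 were higher, and relative to the medians fewer were higher without replicate 1 or 2 at 100 nM. The falls were led by E2F3, by E2F8 at -1.48, with its 500 nM mean under the level for testing, and by E2F7 at -1.09.

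Of 25 DNA damage response genes 6 were lower and 4 higher, shares near the 25.1% and 10.4% over all genes, with a median of -0.05. As deposited 7 were lower and 0 higher, and after quantile normalization 6 were lower and 11 higher. The 4 came to 1 without replicate 1 at 500 nM and to 2 without either array at 100 nM. The first step had called 17 of them lower and 2 higher, beside 17.1% and 24.4% over all genes. The second step lay above the first for 11 of 25 by the test of that difference and below it for 1, beside 9.41% and 21.6%; both steps share the 100 nM arrays. BRCA1, a gene of homologous recombination, stood at 8.09 and 7.92 with DMSO, at 6.32 and 6.07 at 100 nM and at 6.78 and 6.33 at 500 nM. Its level dropped at the lower dose, and the second step was 0.57 ± 0.13 relative to the medians (adjusted p 0.000883) and 0.36 as deposited (adjusted p 0.232). At 100 nM it already stood near the level for testing, 5.94, so a further fall could not be measured fully. PALB2, which joins BRCA1 to BRCA2, fell at both steps, by 1.16 and 1.51, to a mean under the level for testing. RMI1, a partner of the BLM helicase, fell by 1.00. ATM, a kinase of the response to double-strand breaks, rose by 1.97 in the first step and fell by 0.89 in the second.

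**Figure D2:**
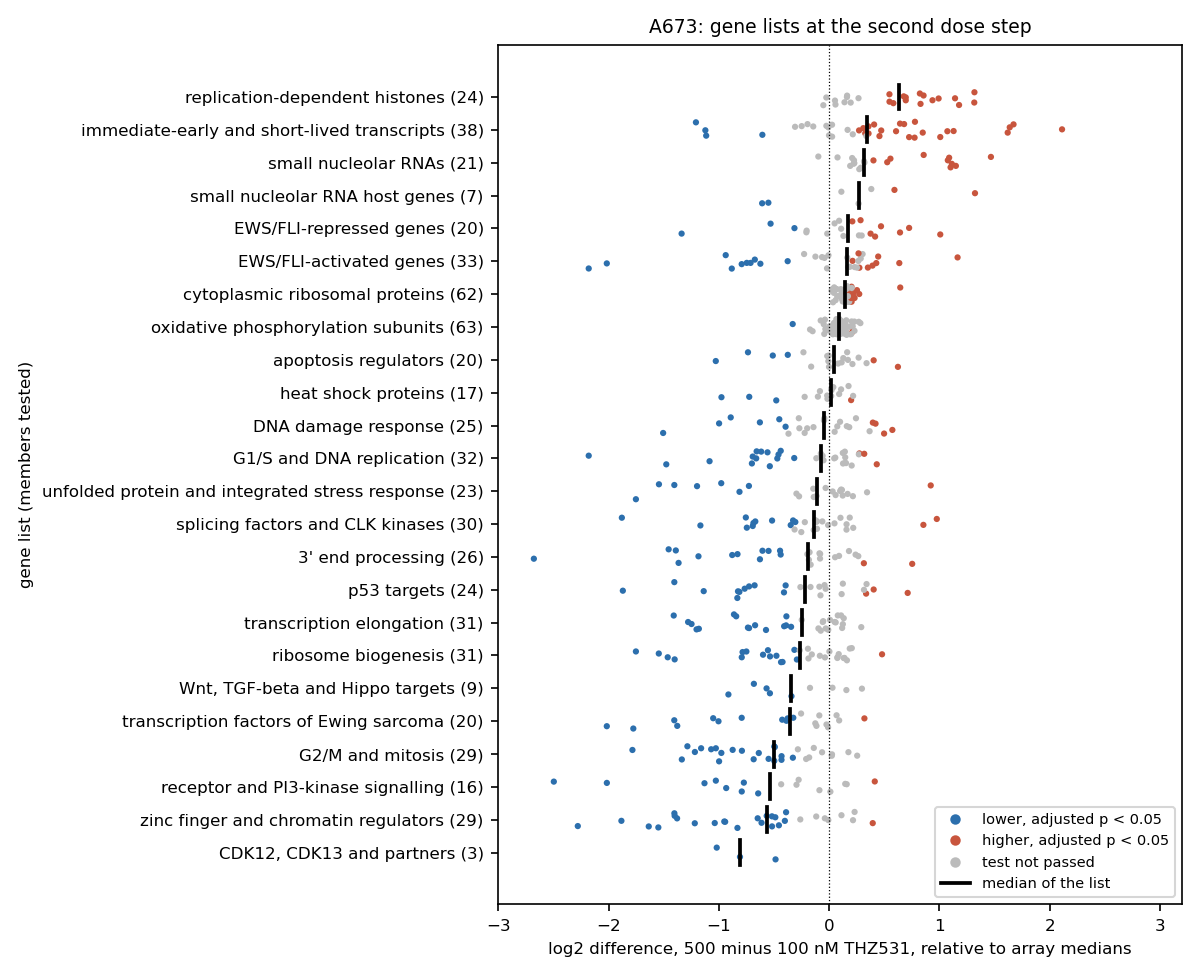
Differences of the tested members of 24 gene lists at the second dose step. The x axis gives the log2 difference, 500 minus 100 nM, relative to the array medians, each point is 1 gene, blue and red points passed the test and black bars are list medians. Histones, immediate-early transcripts and small nucleolar RNAs lie to the right (medians 0.63, 0.35 and 0.32), and the zinc finger and chromatin list lies to the left (-0.57).

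Immediate-early and short-lived transcripts included the largest rises and a few clear falls. Of 38 tested 22 were higher and 4 lower, against 10.4% and 25.1% of all genes, with a median of 0.35, and as deposited 12 were higher and 5 lower. EGR1, ARC and FOS led. The falls included the MAP kinase phosphatase genes DUSP5 (-1.21) and DUSP4 (-1.12). DUSP5 stood at 8.78 and 8.67 at 100 nM and at 7.55 and 7.05 at 500 nM, after a rise of 0.76 in the first step. CEBPB, a leucine zipper transcription factor, fell by 1.12. In the first step 30 of the 38 had been higher and 0 lower, beside 24.4% and 17.1% of all genes. For 14 members the second step lay below the first, and for 3, EGR1 among them, above it. Over all genes the shares were 21.6% below and 9.41% above, so the share above was near that over all genes. MYC stood at 11.87 and 11.81 at 100 nM and at 12.24 and 11.83 at 500 nM, which overlap as deposited. Its relative difference was 0.41 ± 0.11 (adjusted p 0.00655), was not called without replicate 2 at 500 nM (adjusted p 0.0625) and was 0.19 as deposited (adjusted p 0.525).

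Most tested replication-dependent histones were called higher, and none lower. These genes make the histones of S phase, and their messengers usually end in a stem-loop in place of a poly(A) tail. Of 47 listed 45 were measured and 24 were bright enough to test. Of these 15 were higher and 0 lower, beside 10.4% and 25.1% of all genes, with a median of 0.63 (9 and 0 as deposited, median 0.42). With the filter at the 60th percentile, which tests fewer genes, 6 were higher. As deposited without replicate 1 at 500 nM 5 were higher and 5 lower, and 14 were higher without replicate 2 at 500 nM. H3C7 stood at 6.37 and 6.25 at 100 nM and at 7.73 and 7.10 at 500 nM. H2AC11 stood at 6.20 and 6.20, and at 7.57 and 7.04. Neither gene's doses overlapped, and the relative differences were 1.32 ± 0.14 and 1.32 ± 0.16 (adjusted p 1.15e-07 and 6.69e-07). H3C8 rose by 1.18. Both H3C7 and H2AC11 were dim at 100 nM, in the dimmest of 5 equal groups of tested genes, where the median difference was 0.20 and 17% were called higher, against 5.81% in the brightest. The part of brightness in the rises was not tested. Whether the labelling selected polyadenylated RNA is not given in the sources used here.

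Small nucleolar RNAs, which guide the modification of ribosomal RNA, rose or did not pass the test. Of 48 measured 21 were bright enough to test. Of these 10 were higher and 0 lower, beside 10.4% and 25.1% of all genes, with a median of 0.32 (7 and 0 as deposited, median 0.11). SNORA65 climbed at each step, from 5.21 and 5.79 with DMSO over 7.75 and 7.63 to 9.20 and 8.69. The 3 conditions did not overlap, and the second step was 1.47 ± 0.17 (adjusted p 3.94e-07), smaller than the first at 2.81 (adjusted p of the difference 0.00129). SNORA84 and SNORA74A rose by 1.15 and 1.11, after 2.13 and 1.94.

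Most such RNAs are cut from introns of other genes. For the largest rises the tested gene that contains them did not pass the test or fell. Whether each RNA was made from that gene was not tested. RPL12, which holds SNORA65, was at 0.16 (adjusted p 0.0961), IARS1, which holds SNORA84, at 0.10 (adjusted p 0.427) and MATR3, which holds SNORA74A, at 0.04 (adjusted p 0.747). KHDC4 fell by 0.74 (adjusted p 0.000132), while SNORA80E within it rose by 1.08. The last pair was singled out after its values were seen. A gene-level signal does not tell a cut small nucleolar RNA from an intron that still holds it. Of 7 tested host genes of the SNHG kind SNHG17 and SNHG9 rose, by 1.32 and 0.59 (SNHG9 0.38 as deposited, adjusted p 0.192), and SNHG12 and SNHG7 fell, by 0.61 and 0.55.

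About equal numbers of ribosome biogenesis genes fell and did not pass the test, and ribosomal protein genes turned with the scaling. Of 31 ribosome biogenesis genes 15 were lower and 1 higher, beside 25.1% and 10.4% of all genes, with a median of -0.27. In the first step 2 had been lower and 12 higher, beside 17.1% and 24.4% of all genes. POLR1B, a subunit of RNA polymerase I, went from 9.61 and 9.61 at 100 nM to 7.89 and 7.40, a fall of 1.75 ± 0.13 (adjusted p 5.48e-10). UTP15 and WDR43, of the complex that processes the small subunit RNA, fell by 1.55 and 1.46. The 62 cytoplasmic ribosomal protein genes were all between 0.02 and 0.64 relative to the medians, with a median of 0.15. Of them 17 were called higher, beside 10.4% of all genes. As deposited their median was -0.07 and 0 were called, so that the sign of their median turns with the scaling. As deposited without replicate 1 at 500 nM, 49 of the 62 were called lower. The count of 17 was 2 without replicate 1 at 100 nM or replicate 2 at 500 nM, 6 without replicate 2 at 100 nM, 9 without replicate 1 at 500 nM, and 8 without either TC32 DMSO array. It was 36 with the replicate block, 32 with array weights, 6 after quantile normalization, 3 without a filter and 1 without the mean-variance trend. The 63 oxidative phosphorylation genes had a median of 0.09 and -0.12 on the 2 scales, with 1 call in each direction relative to the medians (SDHA at -0.33 and COX7C at 0.21) and 1 lower as deposited. Both calls ended without any 1 of the 4 arrays compared, and COX7C was at -0.0035 as deposited. After quantile normalization 18 of the 63 were higher, with the block 6 and with array weights 8, and as deposited without replicate 1 at 500 nM 56 were lower.

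Among 20 transcription factors of Ewing sarcoma 11 were lower, 1 was higher and 8 did not pass the test, beside 25.1% lower and 10.4% higher over all genes, with a median of -0.35. The 11 came to 7 without replicate 1 or 2 at 100 nM or replicate 2 at 500 nM, and after quantile normalization. BCL11B, a zinc finger repressor, went from 9.19 and 9.01 at 100 nM to 7.22 and 6.51, a fall of 2.02 ± 0.12 (adjusted p 6.08e-11). OTX2 and TWIST1, developmental transcription factors, fell by 1.78 and 1.41. FLI1 stood at 10.85 and 10.87 with DMSO, at 9.55 and 9.29 at 100 nM and at 8.39 and 8.01 at 500 nM. It declined at each step without overlap, by 0.82 and then by 1.00 ± 0.14 (adjusted p 3.54e-06). EWSR1 stood at 11.13 and 11.16, and at 11.20 and 10.61, a relative difference of -0.02 ± 0.11 (adjusted p 0.882). A gene-level FLI1 signal can hold the fusion transcript and does not tell it from FLI1 itself.

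Of 33 EWS/FLI-activated genes 10 were lower, a share near the 25.1% over all genes, and 9 were higher, beside 10.4%. Their median was 0.16, and as deposited 11 were lower and 1 higher, with a median of -0.05. Quantile normalization gave 11 lower and 14 higher. The 9 came to 3 without replicate 1 at 100 nM and to 4 without replicate 1 at 500 nM. BCL11B and E2F3 are members, and RCOR1, a corepressor, fell by 0.94. PHLDA1 rose by 1.16 and was called on both scales. Of 20 EWS/FLI-repressed genes 3 were lower and 8 higher, beside 25.1% and 10.4% of all genes. As deposited 3 were lower and 2 higher. Relative to the medians fewer were higher without replicate 2 at 100 nM or without replicate 1 at 500 nM. IER3 rose by 1.01 and the matricellular genes CCN1 and CCN2 by 0.72 and 0.64 (CCN2 0.43 as deposited, adjusted p 0.0529). FOXO1, a forkhead factor, fell by 1.34 after a rise of 1.31.

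Signalling and stress genes held single large falls. Of 16 receptor and PI3-kinase genes 8 were lower and 1 higher, beside 25.1% and 10.4% of all genes, with a median of -0.54. IRS2, an adaptor of the insulin and IGF receptors, went from 10.74 and 10.70 to 9.61 and 9.15, a fall of 1.13 ± 0.16 (adjusted p 4.86e-06). PIK3R1 and IRS1 had lower fitted values, -2.50 and -2.02, with 500 nM means under the level for testing. Of 24 p53 targets 11 were lower and 3 higher, beside the same shares, the latter near that over all genes. As deposited 1 was higher, and relative to the medians fewer were higher without either array at 100 nM or replicate 1 at 500 nM. PPM1D, a phosphatase that restrains p53, fell by 1.87, SESN2 by 1.40 and AEN by 1.14, and GADD45A rose by 0.71. A673 cells are known to lack functional p53.

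Of 23 genes of the unfolded protein and integrated stress response 7 were lower and 1 higher, beside 25.1% and 10.4% of all genes. The chaperone gene DNAJB9 fell by 1.54, EIF2AK3, a sensor of the endoplasmic reticulum, by 1.75 to a mean under the level for testing, and EIF2AK4, a sensor of amino acid shortage, rose by 0.92 (0.71 as deposited, adjusted p 0.00352). Of 20 apoptosis regulators 4 were lower and 2 higher, shares near those over all genes (0 higher as deposited, 6 after quantile normalization, and 1 without either array at 100 nM or replicate 1 at 500 nM). BIRC2, an inhibitor of apoptosis, fell by 1.03, CFLAR by 0.74 and CASP2 by 0.51. BCL2L2 was at 0.62, and at 0.41 as deposited (adjusted p 0.144). Of 17 heat shock genes 3 were lower and 1 higher, neither share above that over all genes, the falls being DNAJB4 (-0.98), DNAJB1 (-0.73) and BAG3 (-0.48, not called without replicate 2 at 100 or at 500 nM). The rise, HSP90AB1 at 0.20, ended without any 1 of the 4 arrays compared and was at -0.0145 as deposited. Of 9 Wnt, TGF-beta and Hippo targets 5 were lower, beside 25.1% of all genes, LATS2 at -0.91 being the lowest. Quantile normalization gave 3 lower and 1 higher.

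For some genes the second step ran against the first. Tested as 1 contrast, the second step lay below the first for 2196 genes (21.6%) and above it for 955 (9.41%) relative to the medians. As deposited it lay below for 561 (5.53%) and above for 1015 (10%). Quantile normalization gave 1903 and 1770. Without replicate 2 at 100 nM the relative counts were 1193 and 457, and the count above was 591 without replicate 1 at 100 nM. The 100 nM arrays enter both steps with opposite sign.

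PHF12, a subunit of a SIN3 deacetylase complex, stood at 6.45 and 6.52 with DMSO, at 8.59 and 8.73 at 100 nM and at 6.82 and 6.49 at 500 nM. It was high at the lower dose and near DMSO at the higher one as deposited, with steps of 2.80 and -1.80 relative to the medians and a difference of -4.60 ± 0.28 (adjusted p 4.29e-10). SEC24A, of the COPII coat, stood at 6.70 and 6.75, at 9.21 and 9.32, and at 7.91 and 7.46. It kept part of its rise, with steps of 3.16 and -1.37. CHD2, a chromatin remodeller, CPEB2, which binds messenger tails, and DMXL1 rose by 2.18 to 2.49 and then fell by 0.85 to 1.04. ZNF184 was the sixth by this contrast, with steps of 0.72 and -2.33.

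In the other direction, MMS22L, a gene of replication fork repair, stood at 9.20 and 8.96 with DMSO, at 6.75 and 6.68 at 100 nM and at 7.79 and 7.12 at 500 nM. It was lowest at the lower dose, with steps of -1.75 and 0.95 ± 0.13 (adjusted p 2.66e-06) and a second step called as deposited too (0.74, adjusted p 0.00223). ATP10D (-1.33 and 1.05) and CCDC8 (-1.69 and 0.88) had the same shape. INTS6, an Integrator subunit, stood at 9.68 and 9.63, at 6.43 and 6.22, and at 6.69 and 6.06. Its measured fall lay in the first step (-2.71), and the second was 0.27 ± 0.12 (adjusted p 0.0872). At 100 nM INTS6 already stood near the level for testing, 5.94, so a further fall could not be measured fully. PIBF1 and TUBGCP3, genes of centrosome proteins, fell by 1.85 and 1.91 in the first step, and the second was 0.48 (adjusted p 0.00949, not called as deposited) and 0.40 (adjusted p 0.055).

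**Figure D3:**
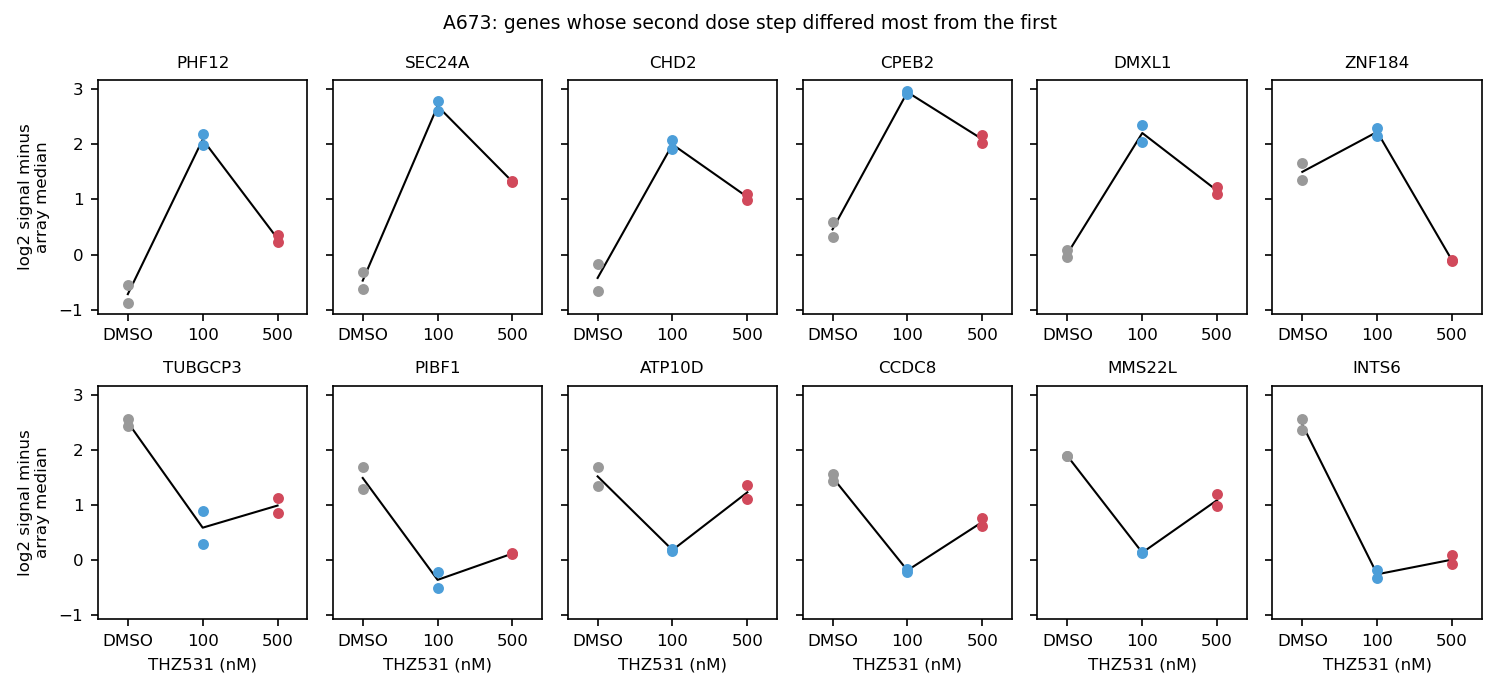
The 6 genes with the lowest and the 6 with the highest second step relative to the first in A673. The y axis gives log2 signal minus the array median, each point is 1 array and lines join group means over DMSO, 100 nM and 500 nM. The upper genes peak at 100 nM, and the lower genes have their lowest mean at 100 nM.

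Gene length went with the share of falls up to long genes and not beyond. Lengths were those of RefSeq genes (GRCh38.p14), found for 10146 of the tested genes, which were split into 10 groups of equal size. Called falls made up 9.26% of the shortest group (median 2.78 kb), 34.1% of the eighth (68.3 kb) and 26.4% of the longest (222.1 kb). Called rises made up 19%, 8.77% and 14.1% of the same groups. The median length was 39.69 kb for genes called lower, 24.11 kb for genes called higher and 28.38 kb for all tested. It was 44.3 kb for at least 2-fold falls and 2.76 kb for at least 2-fold rises. Across genes, which are not independent replicates, Spearman's rho of length with the difference was -0.18. In TC32 the same 3 groups held 18.4%, 37.1% and 26.1% falls, and 39.6%, 23.8% and 31.6% rises. There rises outnumbered falls in the longest group, unlike in A673.

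**Figure D4:**
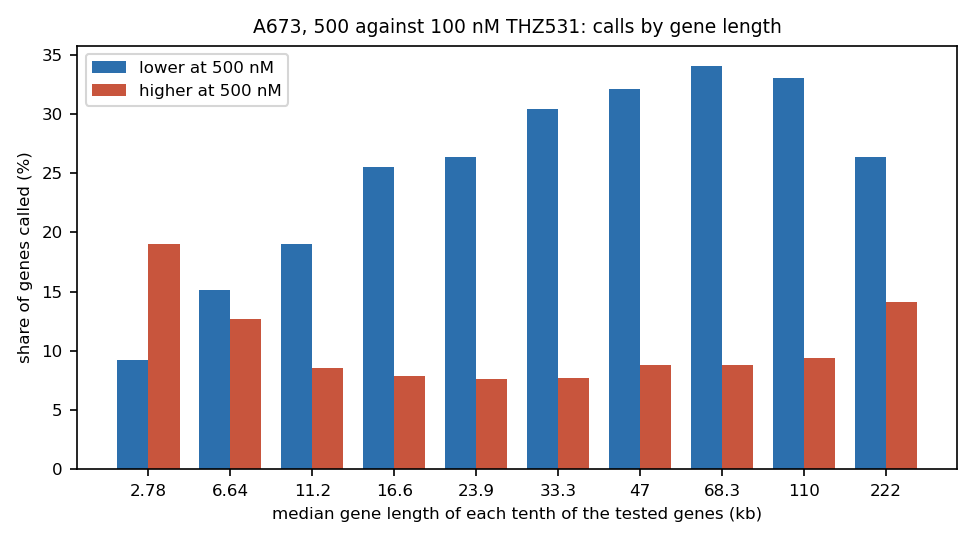
Share of tested genes called lower or higher at 500 than at 100 nM in A673, by gene length. The x axis names 10 groups of 1014 or 1015 genes by their median length in kb, and the y axis gives the percentage called relative to the array medians. Falls increase from 9.26% to 34.1% at the eighth group and drop to 26.4%, and rises are most frequent at both ends (19% and 14.1%).

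TC32 shared much of this dose step, with named exceptions. Across tested genes the steps of the 2 lines correlated at 0.8529 (Pearson) and 0.7876 (Spearman), given as a description. In TC32 3024 genes were lower (29.8%) and 2955 higher (29.1%). The step differed between the lines for 1115 genes (11%), 627 lower in TC32 than in A673 (6.18%) and 488 higher (4.81%). As deposited these were 854 (8.41%) and 13 (0.128%). The 2 counts were 305 and 164 without A673 replicate 1 at 100 nM, 354 and 141 without replicate 2, and 308 and 157 without A673 replicate 1 at 500 nM. The higher count was 204 without A673 replicate 2 at 500 nM, 306 without either TC32 DMSO array, 179 without TC32 replicate 1 at 100 nM and 165 without TC32 replicate 2 at 500 nM. It was 827 or 823 without A673 DMSO replicate 1 or 2, and 871 without TC32 replicate 2 at 100 nM. The lower count was 357 without TC32 replicate 1 at 500 nM.

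Of the 38 immediate-early and short-lived transcripts 18 differed between the lines, beside 11% of all tested genes. FOS stood at 11.31 and 11.04 at 100 nM in TC32 and at 10.40 and 10.69 at 500 nM, where A673 had risen. The TC32 step was -0.05 relative to the medians and the difference between the lines -1.68 ± 0.22 (adjusted p 4.13e-05). ZFP36 rose less in TC32 (0.80), and EGR1 rose more (3.00, difference 0.88, adjusted p 0.00218). MYC was at -0.36 in TC32 (adjusted p of the difference 0.00379). ID4, an inhibitor of helix-loop-helix factors, BAMBI, a decoy receptor of the TGF-beta family, and TGIF1, a repressor of TGF-beta signalling, fell in TC32 by 2.26, 2.07 and 2.06. In A673 the steps were -0.22 and -0.26, which did not pass the test, and -0.52. PAX6 was at -1.94 in TC32, where its 500 nM arrays stood at 6.03 and 5.89. ZFAND5 fell in both lines, by 1.24 in A673 and 2.79 in TC32.

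Of the 24 tested histones 18 were higher and 1 lower in TC32, beside 29.1% and 29.8% of all genes, with a median of 1.30. The step differed between the lines for 10, beside 11% of all genes. H3C4 rose by 0.82 in A673 and 2.16 in TC32, and H2BC21 by 0.68 and 1.85. PLK2, a polo-like kinase, stood at 7.05 and 7.19 at 100 nM in A673 and at 7.55 and 6.90 at 500 nM, which overlap. In TC32 it rose by 2.30, and the difference was 1.99 ± 0.24 (adjusted p 2.02e-05). TMEM45A, PDK1 and FBXO28 were at -0.19, -0.44 and -0.50 in A673 and at 1.01, 0.79 and 0.76 in TC32.

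FLI1 fell in A673 and was at -0.02 in TC32 (adjusted p of the difference 0.00246). In TC32 it already stood at 6.18 and 6.35 at 100 nM and at 5.87 and 5.45 at 500 nM, around the level for testing, so a further fall there could not be measured fully. OTX2 was dim in TC32 at both doses (3.71 to 4.54), and its values there carry no order.

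**Figure D5:**
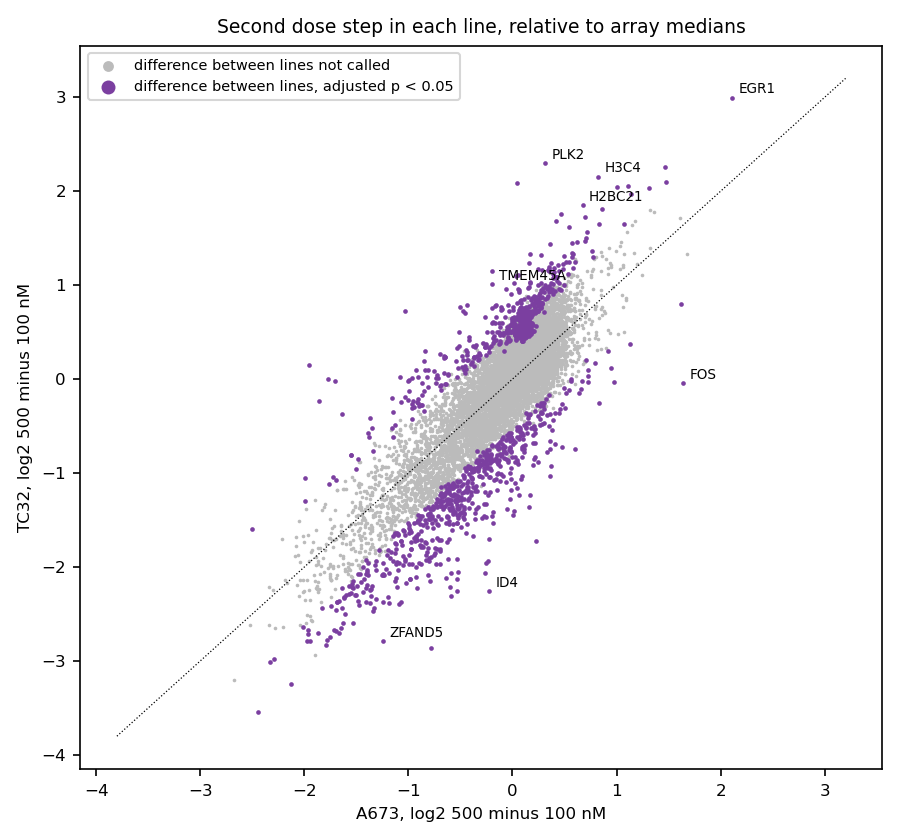
The step from 100 to 500 nM in A673 (x axis) and in TC32 (y axis), both as log2 differences relative to the array medians, 1 point per tested gene. Purple points mark the 1115 genes whose step differed between the lines, and the dotted line marks equal steps. FOS and ID4 lie below the line, and PLK2, H3C4 and EGR1 lie above it.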

How the data were processed

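Gene expression was measured on 12 arrays hybridised with biotin-labelled total RNA. The deposited table holds log2 signals; how the authors normalised them is not given in the sources used here. MAS5, GRCh37 and hg19 are named per the submitters' processing notes, in roles not stated. Of 49395 probe sets, 43290 had 1 gene and 3 decimals; 2829 with at most 2 decimals were left out, as were 116 genes whose values another symbol shared. Values repeat over the probe sets of a gene, so transcripts cannot be told apart.

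Genes were tested at a mean log2 of at least 5.94 over the 12 arrays, the 40th percentile. limma 3.58.1 (R 4.3.3; Python 3.11.15, pandas 2.3.3) was fitted to all 12 arrays with 1 mean per group and a mean-variance trend, two-sided with Benjamini-Hochberg adjusted p under 0.05 across all genes, on values minus each array's median over 16913 genes and on values as deposited. Sharing 1 spread over 6 groups assumes that they vary alike. The median residual SD was 0.118 relative to the medians (prior degrees of freedom 15.77, residual 6) and 0.189 as deposited, where the whole-array offsets are shared by all genes and the p-values do not allow for that. The number of arrays limits the precision. The fit was also tested on simulated data with 10148 genes. Changes were planted only in A673 at 500 nM, on independent normal noise of the fitted spread. The fit then recovered 67 of 100 changes of 0.5 and 100 of 100 of 1 (log2) in this comparison, with 13 false calls. Far more genes were called in the real comparison, so these figures are not the error rate of its calls.

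Named genes were the 12 largest called rises and falls with non-overlapping arrays and both means above 5.94, CDK12, CDK13, CCNK, FLI1, EWSR1, MYC, BRCA1 and ZC3H4, up to 3 called members per list and direction, and 6 per direction of the contrasts between steps and lines; CD99 and NKX2-2 were added as markers and RPL12, IARS1 and MATR3 as containing genes, with KHDC4 and SNORA80E chosen after their values were seen. The members and the 28 lists were chosen with earlier results of these data known. The alternatives were values as deposited, quantile normalization, no filter, a filter at the 60th percentile, A673 arrays only, a replicate block, array weights, no trend and each array left out; the leave-one-out counts as deposited were added after seeing the data. Of the genes kept, 16899 matched RefSeq (GRCh38.p14), which gave lengths and promoters.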

Additional observations from a re-analysis of the deposited data

Results flagged for a closer look

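The genes looked at here are the 24 largest rises and falls in A673 and those chosen for their difference between the lines. For 19 of them the step from 100 to 500 nM differed between the lines by the test of that difference (limma, relative to the array medians, adjusted p under 0.05). Other named genes, MYC, FLI1 and PRPF38B among them, passed it too and are not listed here. The values are the step in TC32 minus the step in A673, on the log2 scale. Among the 24 largest rises and falls in A673 the step was lower in TC32 for TADA1 (-1.09), ZNF184 (-0.69), KANK1 (-1.12), FOS (-1.68) and ZFP36 (-0.82). It was higher in TC32 for EGR1 (0.88), SNORA65 (0.79) and H2AC11 (0.72). Genes chosen for their difference between the lines were ID4 (-2.04), BAMBI (-1.80), PAX6 (-1.71), ZFAND5 (-1.54) and TGIF1 (-1.53), and in the other direction H2BC21 (1.17), TMEM45A (1.21), PDK1 (1.23), FBXO28 (1.27), H3C4 (1.33) and PLK2 (1.99). As deposited, H2BC21 (0.80, adjusted p 0.0666), PDK1 (0.85, adjusted p 0.0591) and TMEM45A (0.83, adjusted p 0.0528) were not called.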

How the results depend on the processing

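The counts of lower genes in A673 at 500 against 100 nM mostly stayed within 1.5 times of 2552 under the other settings listed for the processing. The exception was the fit as deposited without replicate 1 at 500 nM. The counts of higher genes moved by more than that under several settings. As deposited, leaving out each of the 4 arrays compared, an alternative added after seeing the data, gave 1734 to 6574 lower and 43 to 953 higher. Higher genes numbered 91 as deposited, 2800 after quantile normalization, 630 with the filter at the 60th percentile and 1774 with array weights. Leaving out each array in turn gave 2008 to 2731 lower and 422 to 1408 higher. For the second against the first step, genes below numbered 561 as deposited, and genes above numbered 1770 after quantile normalization and 633 with the 60th percentile. Leaving out each array gave 1193 to 2738 and 457 to 1156. For TC32 minus A673, higher genes numbered 13 as deposited, 893 after quantile normalization (1165 lower), 790 with the replicate block and 284 without the trend, and 305 to 814 lower and 141 to 871 higher with each array left out. The median difference as deposited was -0.19, and -0.4625 to 0.065 with each of the 4 arrays left out, turning sign (0.065) without A673 replicate 2 at 500 nM. The cause was not tested, except that the filter at the 60th percentile tests fewer genes and leaving out an array leaves fewer samples. HSP90AB1 (-0.0145) and COX7C (-0.0035) turned sign as deposited, and EWSR1 ranged from -0.088 to 0.039, above 0 without replicate 2 at 100 nM or at 500 nM.

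The labels do not pair the replicate numbers, and deviations of same-numbered A673 arrays at 100 and 500 nM correlated at -0.05. Over the other pairs of groups the correlation ran from -0.16 to 0.44, with 0.24 between TC32 at 100 and 500 nM, so the numbers were not taken to pair the samples. With the replicate number as a block, 2652 genes were lower and 1286 higher at 500 nM, and 2413 below and 1040 above for the second against the first step.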
